A study of Homo sapiens with 6 samples.

Results

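The genes examined here were 10 components of the contractile cytoskeleton, namely the smooth muscle actin gene ACTA2, the transgelins TAGLN and TAGLN2, the myosin light chain gene MYL9, the tropomyosins TPM1, TPM2 and TPM4, the calponins CNN1 and CNN2, and the caldesmon gene CALD1. They were chosen by name, as the rows whose gene symbol matched one of these names, and all 10 of the 60546 gene identifiers were found. They were measured by RNA-seq in HCT-116, an established human colon carcinoma line, of wild-type genotype according to the labels. 3 libraries came from HCT-116-PMSCV-GOLPH3 cells, built to overexpress the Golgi phosphoprotein GOLPH3 from the PMSCV vector, and 3 from HCT-116-PMSCV-Vector cells, which carried the vector without it. The methods state that the 3 samples of each line were different generations of that line, so replicates were not independent clones. Each title also holds the letter P and a number, which was 8, 12 and 13 for GOLPH3 replicates 1, 2 and 3 and 12, 11 and 13 for Vector replicates 1, 2 and 3. What the letter stands for is not given in the sources used here, and p-values measure only the spread between these samples.

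The deposited value per gene is a number of reads divided by a size factor of the library, called normalized reads here. Recovered reads totalled 15708846 to 21900764 per library, and a count of 3 reads, the most that a gene without reads could hide, equals 2.47 to 3.29 normalized reads, for counting error only. The GOLPH3 transcript had 1630, 1272 and 1383 normalized reads in its own group and 1968, 1892 and 1472 in the control group, so it was not higher where it should be overexpressed (log2 fold change -0.31, limma adjusted p = 0.609). The groups are therefore named by their labels only, and "under GOLPH3" and "under Vector" below mean the libraries with that label, always in the order of replicates 1, 2 and 3. Mitochondrial genes took 4.41% to 9.97% of the reads. Keratin genes of the colon epithelium, KRT18 and KRT19, were abundant in every library, whereas KRT20, a keratin of differentiated colon epithelium, had no read in any.

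Actin filaments become contractile when bipolar filaments of myosin II pull on them, and the regulatory light chain of myosin II switches the motor on when it is phosphorylated. Tropomyosins lie along the actin filament and decide which proteins can reach it, calponins and caldesmon restrain the myosin motor, and transgelins cross-link actin. ACTA2, TAGLN, CNN1 and MYL9 are best known from smooth muscle and activated fibroblasts, while TAGLN2, CNN2, TPM4 and the short form of CALD1 are found in most cell types, epithelium included. Serum response factor, SRF, with its actin-sensing cofactors of the MRTF family, is a known regulator of genes of this kind and binds a short sequence called the CArG box.

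The upstream sequences are shown because a CArG box there is the feature these genes are commonly said to share. RefSeq start sites on GRCh38.p14 gave 17 windows of 250 bases upstream for 8 of the 10 genes, and MYL9 and TAGLN had no entry. Searched on both strands, the strict CArG box was found in 2 windows, 1 of CNN2 and 1 of TPM4. It was present in 1.16% of the 35116 upstream windows of the same length and in 1.44% of the 27305 genes. In CNN2 the match was CCTTATAAGG, from 89 to 80 bases before the start, and in TPM4 it was CCAAATAAGG, from 173 to 164 bases before the start. Below, the match is in capitals and the sequences run 5′ to 3′ toward the start site.
CNN2 (chr19:1026358-1026607, plus strand): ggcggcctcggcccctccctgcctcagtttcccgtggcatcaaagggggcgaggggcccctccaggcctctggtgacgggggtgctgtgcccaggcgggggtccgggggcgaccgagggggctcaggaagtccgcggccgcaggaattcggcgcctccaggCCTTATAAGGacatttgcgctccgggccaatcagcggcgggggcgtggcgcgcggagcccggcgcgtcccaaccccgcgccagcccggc
TPM4 (chr19:16067288-16067537, plus strand): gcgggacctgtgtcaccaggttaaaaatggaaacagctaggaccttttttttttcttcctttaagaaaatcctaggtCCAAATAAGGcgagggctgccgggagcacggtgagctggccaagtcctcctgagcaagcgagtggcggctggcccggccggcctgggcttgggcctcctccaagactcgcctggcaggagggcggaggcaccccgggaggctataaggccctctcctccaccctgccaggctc
TPM2 had the highest log2 fold change of the 10 genes, and ACTA2 encodes the smooth muscle actin. The windows of both held no strict match, and 1 window of each is printed for comparison. The printed ACTA2 window does hold ccctatatgg and ccttgtttgg, each 1 base away from the strict pattern. Near matches of this kind were not searched for in any window.
TPM2 (chr9:35689926-35690175, minus strand): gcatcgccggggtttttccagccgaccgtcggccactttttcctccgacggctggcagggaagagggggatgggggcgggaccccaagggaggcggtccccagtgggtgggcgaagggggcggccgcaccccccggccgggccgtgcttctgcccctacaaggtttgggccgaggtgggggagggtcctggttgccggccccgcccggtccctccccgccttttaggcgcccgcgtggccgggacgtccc
ACTA2 (chr10:88952774-88953023, minus strand): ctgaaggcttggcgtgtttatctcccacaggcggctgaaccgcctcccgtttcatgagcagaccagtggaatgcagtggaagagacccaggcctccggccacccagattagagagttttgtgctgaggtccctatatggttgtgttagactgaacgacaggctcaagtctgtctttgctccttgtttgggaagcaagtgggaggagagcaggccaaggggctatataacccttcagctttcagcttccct
The GC box GGGCGG, on either strand, was in 11 of the 17 windows, against 42.6% of all windows. By gene, it was in the windows of 7 of the 8 genes and of 46.2% of all genes. The element CATTCC, on either strand, was in those of 2 genes (ACTA2 and CALD1) against 14.3% of all genes. Shares by gene rise with the number of windows per gene, which was larger for these 8 genes than over all genes. These matches describe the letters only.

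Between the libraries labelled GOLPH3 and those labelled Vector, 7 of the 10 genes had a positive log2 fold change and 3 had a negative one, with a median of 0.61. Over all 26536 genes tested the median was 0.02, and 50.9% of the log2 fold changes were positive. None of the 10 genes had an adjusted p under 0.05 in limma, where 5.07% of all genes did. Before adjustment, 3 genes were under 0.05 and higher (CNN2, TPM2 and MYL9), where 7.51% of all genes were, and 1 was under 0.05 and lower (TAGLN2), where 10.1% of all genes were. The groups did not overlap for 4 of the genes, ACTA2, MYL9, TPM2 and CNN2, all higher in the libraries labelled GOLPH3, which happened for 9.20% of all genes in that direction. None of the 10 was lower without overlap, against 12.8% of all genes. edgeR on the recovered reads called 0 of the 10, against 6.58% of all genes, and DESeq2 called 1, TPM2, with an adjusted p of 0.0383, against 8.68%. With the number after P as a block, limma called 7 of the 10, of which TPM2, MYL9, CNN2 and TPM4 were higher and TAGLN2, CALD1 and TPM1 lower. That fit rests on the pairs at P12 and P13, leaves 1 residual degree of freedom, and called 22.9% of all genes. Each of the 10 kept the sign of its difference within the pair of libraries numbered P12 and within the pair numbered P13. These libraries also enter the overall difference, and the share of all genes that kept their sign was not counted.

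**Figure D1:**
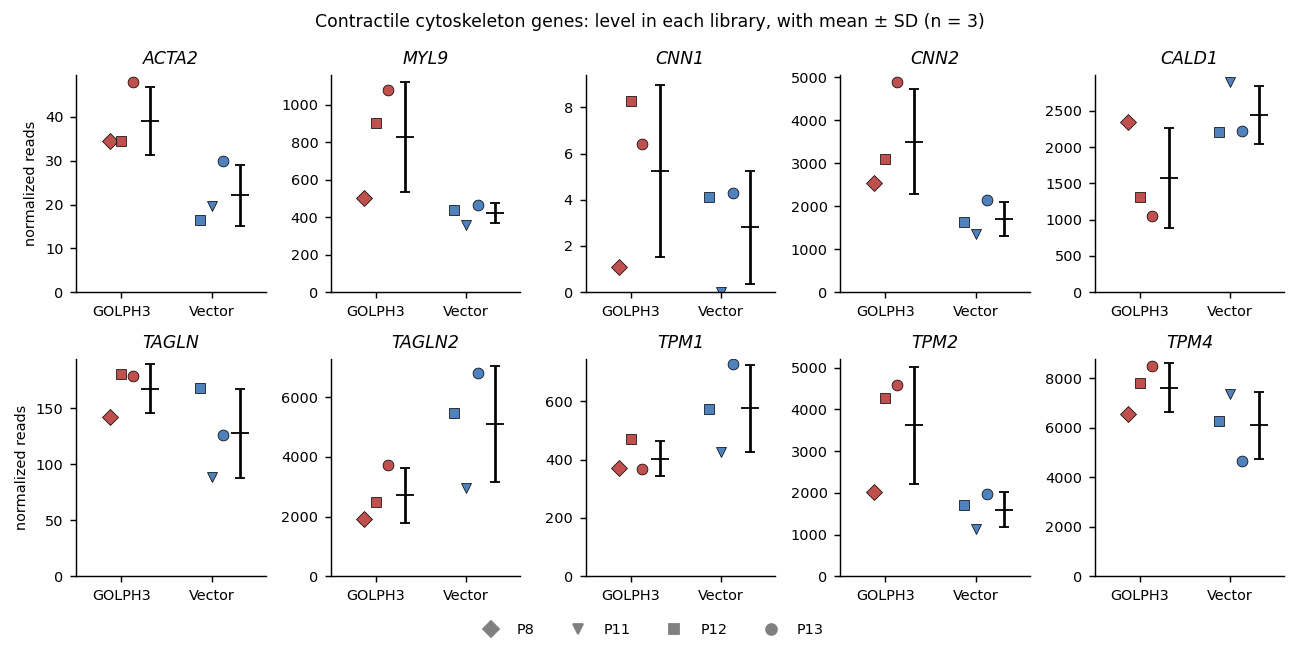
Normalized reads (linear axis from 0) of the 10 contractile genes in the 3 libraries labelled GOLPH3 (red) and the 3 labelled Vector (blue). Marker shapes give the number after P, and bars give the mean ± SD. ACTA2, MYL9, TPM2 and CNN2 are the genes whose groups do not overlap.

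ACTA2 and MYL9 encode the filament and the motor subunit that are most closely tied to smooth muscle contraction. ACTA2 (chromosome 10, 88935074 to 88991339, GRCh38) had 34.4, 34.6 and 48.0 normalized reads under GOLPH3 and 16.5, 19.7 and 30.0 under Vector. The lowest GOLPH3 library lay above the highest Vector library, and both groups were low, since 16 to 45 reads stood behind each value. The means were 39.0 ± 7.82 and 22.1 ± 7.08 (SD, n = 3), and the difference on the log2 scale was 0.82 with a standard error of 0.49 (limma adjusted p = 0.431). Its 95% confidence interval ran from -0.24 to 1.88, so a difference was not shown at this depth and spread. The difference was 1.03 within P12 and 0.66 within P13. Exons of ACTA2 share 380 bases with FAS and 516 bases with ACTA2-AS1 on the opposite strand, and as the strand setting of the counting is not given, reads from there cannot be told apart. FAS had 382.2, 272.9 and 209.2 normalized reads under GOLPH3 and 277.9, 414.1 and 196.5 under Vector, an order that differs from that of ACTA2.

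MYL9, a regulatory light chain of myosin II (chromosome 20, 36541484 to 36551447), had 503, 902 and 1079 normalized reads under GOLPH3 and 441, 360 and 465 under Vector. The 3 Vector libraries lay close together, and GOLPH3 replicate 1 was only just above them. The means were 828 ± 295 and 422 ± 54.8 (SD, n = 3). On the log2 scale the difference was 0.91 with a standard error of 0.34 (limma adjusted p = 0.176, 0.0201 unadjusted). The interval, from 0.17 to 1.65, lay above 0. Within P12 the difference was 1.03 and within P13 it was 1.21. The other 2 regulatory light chains measured, MYL12A and MYL12B, overlapped between the groups, at 0.61 (limma adjusted p = 0.357) and 0.55 (limma adjusted p = 0.376).

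Among the tropomyosins, TPM2 had the highest log2 fold change of the set and TPM1 was on the other side of 0. TPM2 (chromosome 9, 35681992 to 35690121) had 2016, 4262 and 4590 normalized reads under GOLPH3 and 1703, 1128 and 1966 under Vector. The groups were separated by only 2016 against 1966, and GOLPH3 replicate 1 was far below the other two libraries of its group. The means were 3623 ± 1401 and 1599 ± 428 (SD, n = 3). This was a log2 fold change of 1.13 with a standard error of 0.36 and an interval from 0.34 to 1.92 (limma adjusted p = 0.111, 0.00913 unadjusted). Leaving out GOLPH3 replicate 1 gave 1.51 with a limma adjusted p of 0.0192, at which 6.07% of all genes were called. The difference was 1.32 within P12 and 1.22 within P13.

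TPM1, which makes both muscle and non-muscle tropomyosins (chromosome 15, 63042632 to 63071915), had 370, 472 and 367 normalized reads under GOLPH3 and 574, 428 and 728 under Vector. Vector replicate 2 fell inside the range of the GOLPH3 libraries, so the groups overlapped. The log2 fold change was -0.49 with a standard error of 0.31 (limma adjusted p = 0.463), and it was -0.28 within P12 and -0.98 within P13. TPM4, a tropomyosin of non-muscle cells (chromosome 19, 16067021 to 16103005), had 6553, 7780 and 8489 normalized reads under GOLPH3 and 6273, 7345 and 4641 under Vector. Its groups overlapped as well, with a log2 fold change of 0.34, a standard error of 0.29 and a limma adjusted p of 0.595. TPM3, the remaining tropomyosin gene and not one of the 10, was at -0.10 (limma adjusted p = 0.893).

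The 2 calponins differed mainly in level. CNN1, the calponin of differentiated smooth muscle (chromosome 19, 11538717 to 11550323), was close to the detection limit, with 1.07, 8.25 and 6.40 normalized reads under GOLPH3 and 4.12, 0 and 4.29 under Vector. These values rest on 17 reads in the 3 libraries labelled GOLPH3 and 9 in the 3 labelled Vector, and the groups overlapped. The log2 fold change was 0.80 with an interval from -1.06 to 2.65 (limma adjusted p = 0.686), and without Vector replicate 2 it was 0.00. No difference in CNN1 was detectable at this depth.

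CNN2, the calponin found in many non-muscle cells (chromosome 19, 1026581 to 1039068), had 2533, 3101 and 4888 normalized reads under GOLPH3 and 1643, 1352 and 2135 under Vector. Every GOLPH3 library lay above every Vector library. The means were 3507 ± 1229 and 1710 ± 396 (SD, n = 3). On the log2 scale the difference was 1.01, with a standard error of 0.32 and an interval from 0.31 to 1.70 (limma adjusted p = 0.107, 0.00859 unadjusted). It was 0.92 within P12 and 1.19 within P13. Of its 11 pseudogenes in the table, the most abundant reached 8.59 normalized reads, so few reads were assigned to near-identical copies. CNN3, the third calponin gene, was at -0.06 (limma adjusted p = 0.929).

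CALD1, the gene of caldesmon (chromosome 7, 134744252 to 134970728), had 2347, 1317 and 1045 normalized reads under GOLPH3 and 2206, 2899 and 2224 under Vector. GOLPH3 replicate 1 was inside the Vector range, and the other two GOLPH3 libraries were below it. The means were 1570 ± 687 and 2443 ± 395 (SD, n = 3). The difference on the log2 scale was -0.71, with a standard error of 0.33 and an interval from -1.44 to 0.01 (limma adjusted p = 0.294, 0.0533 unadjusted). The difference was -0.74 within P12 and -1.09 within P13.

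The 2 transgelins had log2 fold changes of opposite sign. TAGLN, also called SM22, an early marker of smooth muscle (chromosome 11, 117199321 to 117204782), had 142, 181 and 179 normalized reads under GOLPH3 and 168, 88.7 and 126 under Vector. Vector replicate 1 lay within the GOLPH3 range. The log2 fold change was 0.43 with a standard error of 0.37 (limma adjusted p = 0.606), and it was 0.11 within P12 and 0.50 within P13. Its exons share 446 bases with PCSK7 on the opposite strand, which had 450.8 to 865.8 normalized reads.

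TAGLN2, the widely expressed transgelin (chromosome 1, 159918107 to 159925732), had 1934, 2481 and 3717 normalized reads under GOLPH3 and 5486, 2973 and 6800 under Vector. GOLPH3 replicate 3 was above Vector replicate 2, and the other values were separated. The means were 2711 ± 913 and 5087 ± 1945 (SD, n = 3). The difference on the log2 scale was -0.88, with a standard error of 0.36 and an interval from -1.67 to -0.09 (limma adjusted p = 0.228, 0.0327 unadjusted). It was -1.14 within P12 and -0.87 within P13.

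**Figure D2:**
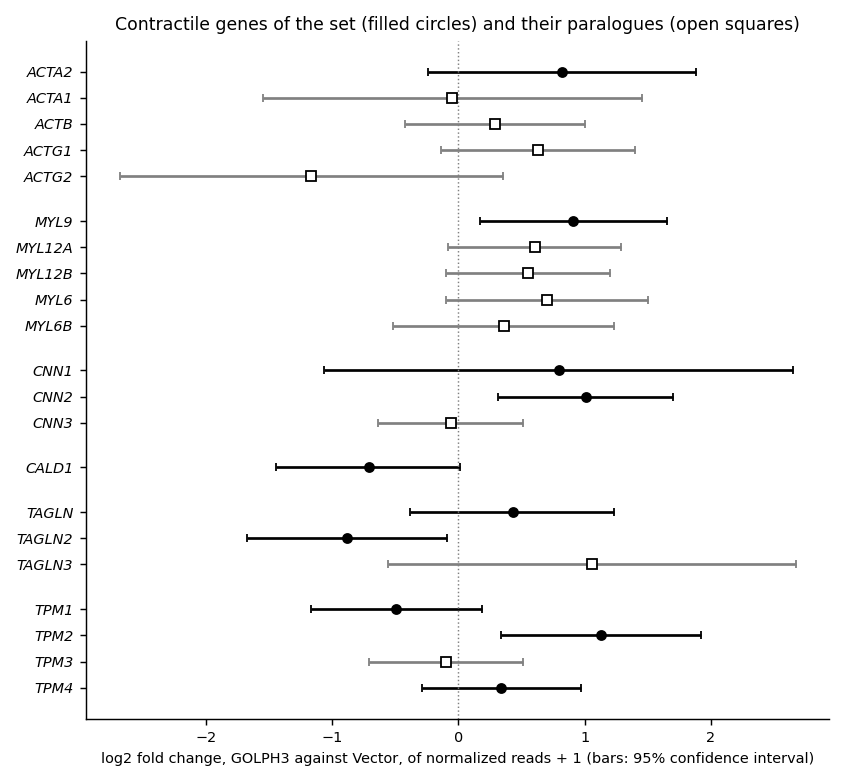
Log2 fold change of log2(normalized reads + 1), GOLPH3 against Vector, with its 95% confidence interval from limma, for the 10 contractile genes (filled circles) and the other genes of their families (open squares). The intervals of MYL9, TPM2 and CNN2 lie above 0 and that of TAGLN2 lies below 0, before adjustment for multiple tests.

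Per kilobase of merged exons, the order of the mean levels in the libraries labelled GOLPH3 was TPM2 at 1115 normalized reads per kilobase, TAGLN2 at 1090, CNN2 at 962, TPM4 at 881, MYL9 at 294, CALD1 at 159, TAGLN at 42.7, TPM1 at 31.3, ACTA2 at 13.1 and CNN1 at 1.82. In the libraries labelled Vector the order was TAGLN2 at 2045, TPM4 at 705, TPM2 at 492, CNN2 at 469, CALD1 at 248, MYL9 at 150, TPM1 at 44.8, TAGLN at 32.6, ACTA2 at 7.42 and CNN1 at 0.971. TPM2, TAGLN2, CNN2 and TPM4 thus held the top places in both groups, and ACTA2 and CNN1 were at the bottom. The order among TPM2, TAGLN2, CNN2 and TPM4 depends on the length used, since TPM4 came first under GOLPH3, at 2449 per kilobase of the longest transcript. With that length under GOLPH3, CALD1 at 367 also stood above MYL9 at 294, and TPM1 at 102 above TAGLN at 50.7. Under Vector the order was the same with either length. In the libraries labelled GOLPH3 the neighbours from TPM2 down to TPM4 overlapped, as did MYL9 with CALD1 and TAGLN with TPM1. In those labelled Vector the overlapping neighbours were TPM4 with TPM2, TPM2 with CNN2, and TPM1 with TAGLN, and the other steps of both orders were free of overlap.

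Shares within a family do not depend on how the libraries were scaled, and 18 such shares were tested with an exact two-sided permutation test over libraries, in which 3 against 3 cannot go below p = 0.1. CNN2 took 45.3%, 50.5% and 55.6% of the calponin level per kilobase under GOLPH3 and 30.9%, 28.2% and 39.5% under Vector. The groups did not overlap, and the mean share was 17.6 percentage points higher under GOLPH3 (50.5% ± 5.13 against 32.9% ± 5.89, SD, n = 3; exact permutation p = 0.1, 0.180 after Benjamini-Hochberg adjustment). CNN3 held nearly all of the remainder. TPM2 took 26.4%, 41.1% and 39.7% of the tropomyosin level under GOLPH3 and 22.3%, 13.7% and 28.9% under Vector, a difference of 14.1 points with overlapping groups (exact permutation p = 0.2, adjusted 0.327). TPM1 was a small part in both groups, 1.06% against 1.97%, without overlap (exact permutation p = 0.1, adjusted 0.180), and TPM4 was at 29.4% and 30.0%. TAGLN2 made up 94.8% and TAGLN 3.89% of the transgelin level under GOLPH3, against 98.0% and 1.64% under Vector, both without overlap (exact permutation p = 0.1, adjusted 0.180). ACTA2 was 0.0254% of the actin level under GOLPH3 and 0.0210% under Vector (exact permutation p = 0.4), as ACTB and ACTG1, the cytoplasmic actins, filled nearly all of it. MYL9 was 7.31% of the regulatory light chain level against 6.03% (exact permutation p = 0.5).

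**Figure D3:**
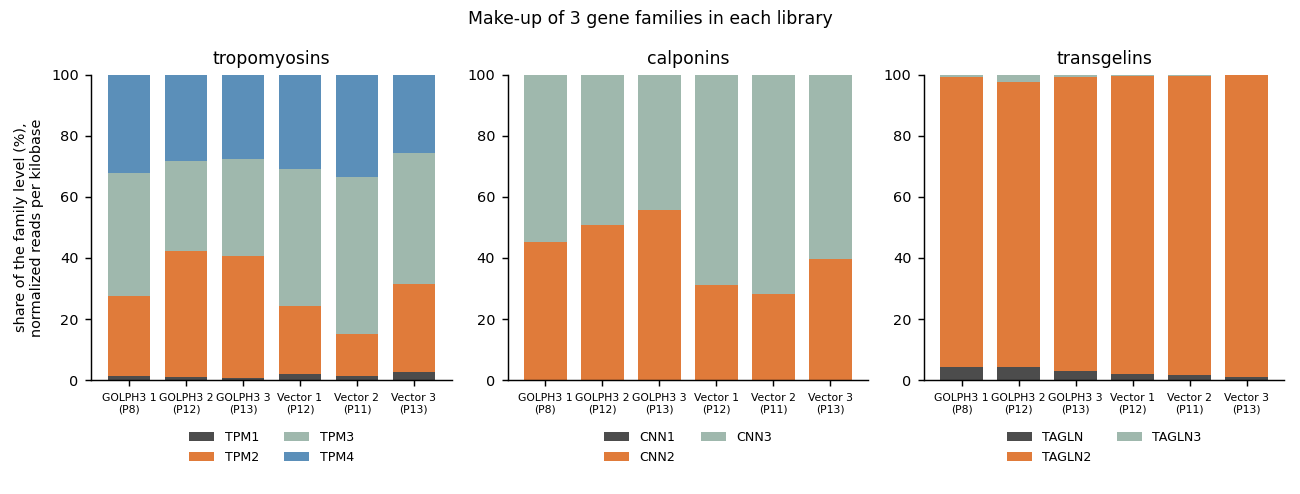
Share of each gene in the summed level of its family (percent, from normalized reads per kilobase of merged exons) in each of the 6 libraries, for the tropomyosins, calponins and transgelins. CNN2 holds 45.3% to 55.6% of the calponins under GOLPH3 and 28.2% to 39.5% under Vector, and CNN1 is too low to be seen.

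The log2 ratio of 2 genes in the same library was examined for 7 pairs, which were picked after the values had been seen. The ratio of TPM2 to TPM1 was 2.44, 3.18 and 3.64 under GOLPH3 and 1.57, 1.40 and 1.43 under Vector. The Vector libraries agreed within a narrow range, all GOLPH3 libraries were above it, and the mean difference was 1.62 (exact permutation p = 0.1, 0.233 after adjustment over the 7 pairs, and 1.34 to 1.94 with 1 library left out). The ratio of TAGLN2 to TAGLN was 3.77, 3.78 and 4.37 under GOLPH3 and 5.03, 5.07 and 5.75 under Vector, a mean difference of -1.31 (exact permutation p = 0.1, adjusted 0.233). The ratio of CNN2 to CNN3 was 0.09, 0.40 and 0.69 against -0.80, -0.98 and -0.25, a mean difference of 1.07 (exact permutation p = 0.1, adjusted 0.233). These 3 pairs did not overlap, whereas TPM2 to TPM3, TPM4 to TPM1, MYL9 to MYL12A and MYL9 to MYL12B did. Because the pairs were picked with the values known, their p-values cannot serve as tests. The share of other gene pairs without overlap was not counted.

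The libraries of a group differed in the same direction for most of the 10 genes. GOLPH3 replicate 1, numbered P8, was the lowest of its group for 8 of them, with CALD1 as its highest and TPM1 in between, and GOLPH3 replicate 3 was the highest for 6. Vector replicate 2, numbered P11, was the lowest of its group for 7, and Vector replicate 3 was the highest for 7. The largest deviation from a group mean among the abundant genes was that of TPM2 in GOLPH3 replicate 1, at -0.76 on the log2 scale, and CALD1 stood at 0.67 in the same library. Gene length moved with the same libraries. Over genes with a mean of at least 50 normalized reads, the longest of 5 equal length classes deviated from its group mean by 0.46 more than the shortest class in GOLPH3 replicate 1 and by 0.44 more in Vector replicate 2, and by -0.40 and -0.28 in replicates 3 of GOLPH3 and Vector. Between the groups, the median log2 fold change went from 0.19 in the shortest class to -0.19 in the longest. The part of these differences in the results for the 10 genes was not tested.

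**Figure D4:**
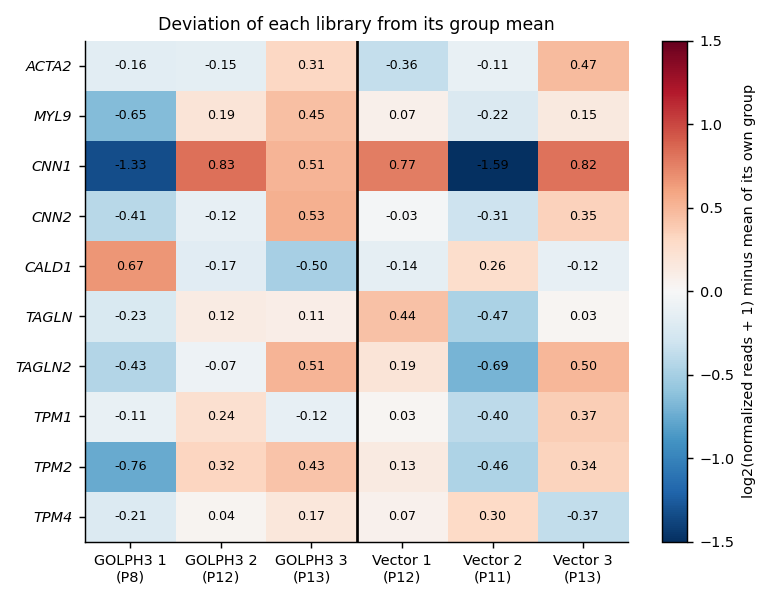
Difference of each library's log2(normalized reads + 1) from the mean of its own group, for the 10 contractile genes (rows) in the 6 libraries (columns, with the number after P). Red is above and blue is below the group mean, and GOLPH3 replicate 1 and Vector replicate 2 are blue for most genes, with CALD1 red in both.

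The rest of the contractile machinery was read from 7 further lists with 98 different genes, of which 86 were tested. At a limma adjusted p under 0.05, 1 of the 86 was higher (the striated muscle gene TNNT2) and 5 were lower, where 0.953% and 4.12% of all genes were. TNNT2 passed the filter only through the libraries labelled GOLPH3, so its call is a description only. The 12 family paralogues had a median log2 fold change of 0.36 and none was called, and ACTC1, the cardiac actin, had no read. Among 10 late smooth muscle markers none of the 6 tested was called in limma, while 1, SMTN, was under 0.05 before adjustment. MYH11, the smooth muscle myosin heavy chain, had no read in any library, and neither had KCNMB1. MYOCD, the coactivator that drives the smooth muscle programme, had 1 read in GOLPH3 replicate 1 and 9 in Vector replicate 1 and none elsewhere. DES, the muscle intermediate filament gene, had 26.8, 25.6 and 64.0 normalized reads under GOLPH3 and 22.6, 24.1 and 29.2 under Vector (limma adjusted p = 0.694). SMTN, which encodes smoothelin, was at 1.34 with groups that did not overlap (limma adjusted p = 0.0695, and 0.0150 in DESeq2). LMOD1, an actin nucleator of smooth muscle, was at -0.14 (limma adjusted p = 0.925).

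Of 17 genes of myosin II motors and their regulators, 2 were called lower in limma and none higher, where 4.12% and 0.953% of all genes were. Of the 17, 8 had a positive log2 fold change and 9 a negative one. MYH10, the heavy chain of non-muscle myosin IIB, had 1817, 773 and 1104 normalized reads under GOLPH3 and 2458, 2571 and 4130 under Vector, a log2 fold change of -1.36. Its limma adjusted p was 0.0495 and ranged up to 0.169 over the alternatives, with 11 of the 15 above 0.05, among them those without any single library other than GOLPH3 replicate 1. PPP1R14A, an inhibitor of the phosphatase that acts on the regulatory light chain, had 1.07, 1.65 and 0 normalized reads under GOLPH3 and 44.3, 6.57 and 163 under Vector (limma adjusted p = 0.0183). That call was lost in 5 of 13 alternatives, which were a pseudocount of 0.1, the replicate block (limma adjusted p = 0.0582), and the fits without GOLPH3 replicate 3, Vector replicate 1 or Vector replicate 3. Its 3 reads against 239 give a ratio of 0.0124, with a 95% counting interval from 0.00254 to 0.0367. The counting intervals here leave out the spread between libraries, so they are too narrow for a comparison of the groups. Vector replicate 3 holds 190 of the 239 reads, and without it the ratio is 0.0374 (0.00747 to 0.116), whereas without GOLPH3 replicate 2 it is 0.00683 (0.000172 to 0.0384). MYH9, the heavy chain of myosin IIA, was at 1.01 with no overlap (limma adjusted p = 0.163).

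SRF had 1383, 2146 and 2484 normalized reads under GOLPH3 and 1430, 1129 and 2025 under Vector, and its difference of 0.39 on the log2 scale was not called (limma adjusted p = 0.588). The groups overlapped, as they did for its cofactors MRTFA at 0.30 and MRTFB at -0.04, and none of the 8 genes tested in this list was called. FHL2 was at 1.26 and ELK3 at 0.77 (limma adjusted p = 0.227 and 0.287). Of 14 further target genes of SRF and MRTF, 12 had a positive log2 fold change, with a median of 0.70, but none was called higher and 2 were called lower. FHL1, a LIM-domain protein of muscle, had 439, 334 and 413 normalized reads under GOLPH3 and 2293, 1346 and 2042 under Vector (-2.23, limma adjusted p = 0.000625). ANKRD1, an ankyrin-repeat protein of muscle, had 1.07, 3.30 and 3.20 against 356, 40.5 and 78.1 (-4.98, limma adjusted p = 0.00150). Of the 20 genes that cap, sever or bundle actin filaments, PLS3, the bundling protein plastin 3, was called lower (-2.24, limma adjusted p = 0.000313). None was called higher, although 10 of the 20 had a positive log2 fold change. Over all genes, 4.12% were called lower and 0.953% higher.

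**Figure D5:**
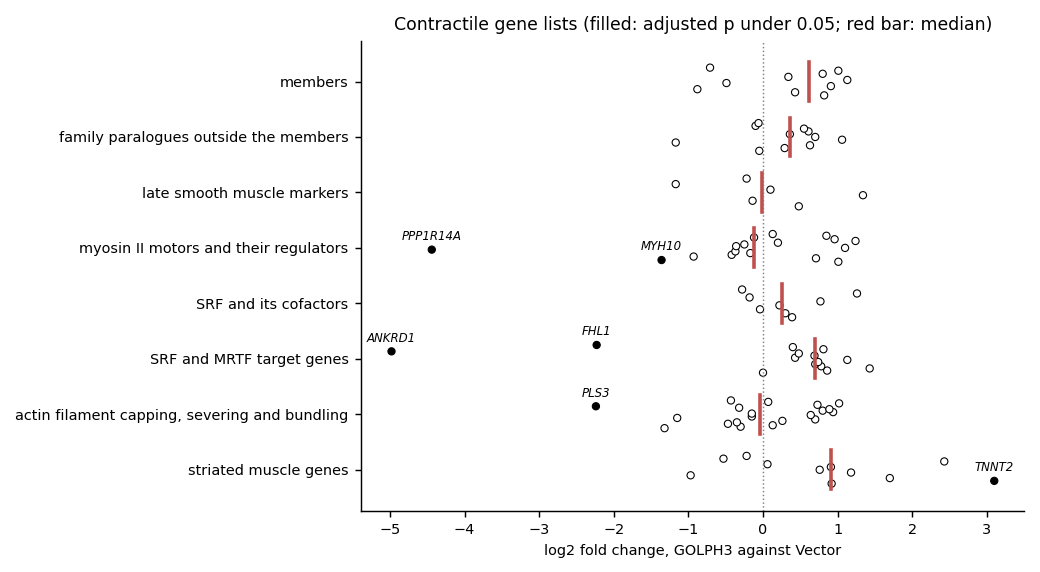
Log2 fold change (GOLPH3 against Vector) of each tested gene in the set of 10 (top row, members) and in 7 lists of related genes. Filled points have a limma adjusted p under 0.05, and red bars are list medians, 0.61 for the 10 genes, 0.70 for the SRF and MRTF targets and 0.91 for the striated muscle genes.

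Markers of cell type also moved with the group. Of 11 colon epithelial markers, 9 were tested, 8 of those had a positive log2 fold change, and their summed level was 62850 to 134421 normalized reads under GOLPH3 and 30014 to 41154 under Vector. Nearly all of that level came from KRT8, KRT18, KRT19 and EPCAM. CDX2 of the same list was at -0.52 (limma adjusted p = 0.636). CDH17, LGALS4 and VIL1 had at most 9 reads in any library, and CDX1 had 1 read in GOLPH3 replicate 1 only. KRT19 was higher by 1.92 and KRT18 by 1.26 (limma adjusted p = 0.00440 and 0.0363). KRT19 was called in all 15 alternatives, but KRT18 in only 7 of them, with limma adjusted p up to 0.195 and no call without GOLPH3 replicate 2, GOLPH3 replicate 3 or any 1 of the Vector replicates. Of 7 markers of HEK293-like cells, 6 were called lower in limma, where 4.12% of all genes were. The 7 summed to 142 to 156 normalized reads under GOLPH3 and 4326 to 12021 under Vector. PAX2, the remaining gene, was at 0.17 (limma adjusted p = 0.853). With 134, 112 and 130 normalized reads it made up most of the sum under GOLPH3. The list also holds NEFL, CDH2 and VIM. CDH2 and VIM encode N-cadherin and vimentin, which the paper used as mesenchymal markers. IRS4, UCHL1 and NEFM of that list had no read in any library labelled GOLPH3 and 346 to 4831 normalized reads in each one labelled Vector. These genes and NEFL passed the filter only through the libraries labelled Vector, so their calls are descriptions only. The part of these differences in the results for the 10 contractile genes was not tested, and in bulk RNA fewer cells of a type and less RNA per cell cannot be told apart.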

How the data were processed

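RNA-seq was performed by the authors on 3 samples of each line, and the submitters' processing notes name fastp 0.20.0, HISAT2 2.1.0, Cufflinks, featureCounts 1.6.1 and DESeq2 with the build GRCh38, without roles or settings. The deposited signal gives each gene a level in each library. Between 99.98% and 100.0% of the nonzero values of a library were whole multiples of a single step (tolerance 0.02), so the values are read numbers that were divided by the authors by a factor per library, with no length correction, and the reads were recovered for count tests. The table has 60590 rows, of which 44 were second rows of an identifier and were added to the first. 58367 identifiers were in GENCODE 29, from which positions and lengths were taken.

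limma 3.58.1 in R 4.3.3 was applied, with a mean-dependent prior, to log2(value + 1) for genes that reached 1 normalized read in 3 or more libraries, with Benjamini-Hochberg adjustment over all of them. Fold changes of low genes are therefore understated. Groups were taken from the titles. Libraries of a group differed by far more than sampling noise (chi-square per degree of freedom 65.3 to 132.8), so each counted as a sample. The contractile genes and lists were chosen with earlier results of these data known. All 10 were named. Genes named from the lists were mostly those with the 3 smallest p of a list, genes of the same families and a few regulators. The other genes of the lists are given only in counts, medians and sums. Alternatives were a pseudocount of 0.1, other filters, quantile and TMM scaling, edgeR 4.0.16 and DESeq2 1.42.0 on recovered reads, the replicate number or the number after P as a block, each library left out, and longest-transcript lengths. Leaving out libraries for the paralogue ratios and for low-count ratios was added after the data were seen. Simulated data with known changes were used to test the scripts. Promoter sequences are from RefSeq (GRCh38.p14). The result of 1 marker gene is not reported here.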

Additional observations from a re-analysis of the deposited data

How the results depend on the processing

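Of the 10 contractile genes, 9 kept the sign of their log2 fold change under all 15 alternatives, and CNN1 kept it in 12 of 13, with 0.00 without Vector replicate 2. Their median stayed between 0.34 and 0.75. The number of the 10 called higher was 0 in limma, 1 in DESeq2, 0 to 1 with a library left out and 4 with the number after P as a block, where 3 were also called lower. With the replicate block 0 of the 10 were called, and the adjusted p of CNN2 was 0.0936. By the replicate number, the correlations of same-numbered deviations over genes were -0.23, -0.15 and 0.26, and the replicate block moved no call of the 10. By the number after P, the correlation was 0.26 for the P12 pair, 0.26 for the P13 pair and 0.33 for P8 with P11. Every other pairing lay between -0.23 and -0.01. Within each group the deviations of the 3 libraries sum to 0, so these correlations are tied to each other. They are not separate checks of a pairing. The main limma fit does not use the number after P, and the part of any pairing in the calls with the P block was not tested.

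In the 86 related genes tested, the 1 called higher became 0 with a minimum in every library, in edgeR and with the replicate block, 4 in DESeq2, 31 with the P block and 0 to 7 with a library left out (7 without GOLPH3 replicate 1). The 5 called lower became 3 with a pseudocount of 0.1, a minimum in every library, edgeR or the replicate block, 8 with the P block and 3 to 5 with a library left out (3 without GOLPH3 replicate 3, Vector replicate 1 or Vector replicate 3). The cause was not tested.

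Signs turned for 9 other genes. ACTA1 (-0.05) was at 0.17 with quantile scaling, 0.05 with the P block, and between -0.56 and 0.43 with a library left out (0.27, 0.14 and 0.43 without GOLPH3 replicate 1, GOLPH3 replicate 2 or Vector replicate 3). LMOD1 (-0.14) was at 0.15, 0.31, 0.20 and 0.10 with quantile scaling, the P block, or without GOLPH3 replicate 1 or Vector replicate 3, from -0.49 over the libraries left out. MRTFB (-0.04) was at 0.01 in edgeR, 0.22 without GOLPH3 replicate 3 and 0.18 without Vector replicate 2, from -0.35. Without Vector replicate 2, MRTFA (0.30) was at -0.01 (up to 0.54 without other libraries), EIF4EBP1 (0.63) at -0.02 (up to 1.21), JUN (0.70) at -0.19 (up to 1.27) and TPM3 (-0.10) at 0.05 (from -0.23), and TPM3 was at 0.09 with the P block. ACTB (0.29) was at -0.01 with quantile scaling, and CD14 (0.11) was at -1.06 without GOLPH3 replicate 3 and -0.84 without Vector replicate 1, up to 1.11 without GOLPH3 replicate 2. Depth limits CNN1 and ACTA2, and CNN1 was not tested with a minimum in every library or in edgeR.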

Other observations

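Striated muscle genes were also present, mostly at low levels, with TNNT1 as the exception. Of 18 such genes 11 were tested, with a median log2 fold change of 0.91, and 1 was called higher in limma. TNNT2, the cardiac troponin T gene, had 9.66, 1.65 and 21.3 normalized reads under GOLPH3 and no read under Vector (limma adjusted p = 0.0462), which is at least 3.31-fold higher on the means when Vector is set to 3 reads, with GOLPH3 replicate 2 itself under that limit. The bound rests on GOLPH3 replicate 3, without which it is 1.72-fold. Its adjusted p was above 0.05 when any Vector library was left out, up to 0.144, and with the replicate block (limma adjusted p = 0.0776), and without any GOLPH3 library the gene no longer passed the filter. CKM, muscle creatine kinase, was at 2.43 (limma adjusted p = 0.138). TNNT1, the slow skeletal troponin T gene, had 1130, 2063 and 2558 normalized reads under GOLPH3 and 952, 890 and 1028 under Vector, without overlap (log2 fold change 0.92, limma adjusted p = 0.154).

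TNNT1 was also the gene whose profile over the 6 libraries was closest to that of MYL9, with a root mean square difference of 0.06 between centred log2 values, followed by FAM214B at 0.07, out of 12662 genes searched. For ACTA2 the closest genes were TMEM104 (0.08) and PIF1 (0.10), for TAGLN they were KCNJ11 and DENND1A (0.07 each), and for CNN1 they were EIF4EBP1 (0.19) and JUN (0.20). With 6 libraries and this many genes searched, these are descriptions.

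Of 11 fibroblast markers 7 were tested, with a median of -1.62, and 1 was called, PDGFRA, with 0, 0.825 and 0 normalized reads under GOLPH3 and 5.15, 7.67 and 24.9 under Vector (limma adjusted p = 0.0227). It was not called with the replicate block (limma adjusted p = 0.0591) or without GOLPH3 replicate 1 (0.0522) or GOLPH3 replicate 3 (0.0891). PDGFRA passed the filter only through the libraries labelled Vector and did not pass it when any of these was left out, so its call is a description only. FBLN1 was at -1.62 on the log2 scale (limma adjusted p = 0.0530) and COL1A1 at 0.91 (limma adjusted p = 0.151). The defining marker DCN had no read in any library. Their summed level was 1095 to 1902 normalized reads under GOLPH3 and 976 to 2661 under Vector. The 6 endothelial markers summed to 25.6 to 42.9 under GOLPH3 and 19.7 to 34.3 under Vector, with none called. Of the blood cell markers, CD3E had no read in any library.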
